A study of Mus musculus with 15 samples.

Results

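The genes followed here belong to stratified squamous epithelium: the keratins Krt5, Krt14, Krt15, Krt4 and Krt13, the transcription factor Trp63, the desmosomal cadherins Dsg3 and Dsc3, and Sfn. They are 9 of the 36528 gene IDs in the table, matched by symbol, and were chosen by their counts per library, because some libraries held squamous genes. The counts show a narrower pattern. Krt5, Krt15, Krt4, Krt13, Trp63 and Dsg3 stood far above every other library in 1 of the 15 libraries, C362A replicate 4, whereas Krt14, Dsc3 and Sfn did not. That choice of genes rested on their spread between libraries, so the levels below are a description and carry no test.

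Polyadenylated RNA was sequenced from the small intestine of mouse embryos at the stage labelled e16.5. Each of 3 genotypes gave 5 libraries, and all 15 came from mice without Mlkl, the executioner of necroptosis. The first genotype carried the Casp8 C362A knock-in, an allele whose caspase-8 lacks its catalytic cysteine (called C362A here). The second lacked Casp8 (knockout), and the third had wildtype Casp8 (wildtype). The labels mark the C362A tissue as inflamed and the knockout and wildtype tissue as normal. They give no litter, sex, dissection or batch, and they do not say whether replicates came from separate embryos, so p-values measure the spread between these libraries.

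Squamous epithelia such as epidermis, oesophagus and the rodent forestomach are layered. Their basal cells hold the keratin pair KRT5 and KRT14, with KRT15 beside them, and depend on p63, the product of Trp63. Cells that leave the basal layer of an internal squamous lining switch to the pair KRT4 and KRT13, and desmosomes built from DSG3 and DSC3 hold neighbouring cells together. The lining of the small intestine is a simple columnar epithelium, whose keratins are Krt8, Krt18, Krt19 and Krt20.

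Libraries held 31896399 to 38532127 counts, with a median of 34927884. A gene with no count in a library could still have had a level of up to 0.0780 to 0.0980 CPM (counts per 1e6, scaled by TMM, the trimmed mean of M values), the worth of 3 counts. Such floors and the intervals below cover counting error only. Casp8 stood at 64.3 to 72.8 CPM in C362A libraries, against 62.3 to 77.5 CPM in wildtype libraries. In knockout it was lower than in wildtype in every library, with a log2 fold change of -2.28 (SE 0.08, edgeR adjusted p = 2.55e-11). Mlkl was at 0.187 to 0.839 CPM in all libraries. The columnar keratins marked every library, with a summed level of 1273 CPM in C362A replicate 4 and 1112 to 1520 CPM elsewhere, over 6 genes.

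The start of 2 of the genes that stood apart, and of Sfn, which did not, is shown because these genes differed in how they varied between libraries. RefSeq's table for GRCm38.p6 had an entry for 4 of the 9 genes. Not all 4 are printed, and the motifs were chosen after values were seen. Each line gives the 250 bases before the annotated start on the minus strand, Krt5 at chr15:101712906-101713155, Krt13 at chr11:100121567-100121816 and Sfn at chr4:133602169-133602418. Capitals mark matches to TGANTCA (a form of the AP-1 core), GCATGC (which holds the CATG letters common at p53 family sites) and ATAAAAG (a form of the TATA box), searched on both strands.
Krt5: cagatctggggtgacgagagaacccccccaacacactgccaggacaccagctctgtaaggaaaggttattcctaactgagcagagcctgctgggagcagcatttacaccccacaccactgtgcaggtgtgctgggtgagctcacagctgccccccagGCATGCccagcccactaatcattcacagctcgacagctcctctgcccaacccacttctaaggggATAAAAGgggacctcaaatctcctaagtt
Krt13: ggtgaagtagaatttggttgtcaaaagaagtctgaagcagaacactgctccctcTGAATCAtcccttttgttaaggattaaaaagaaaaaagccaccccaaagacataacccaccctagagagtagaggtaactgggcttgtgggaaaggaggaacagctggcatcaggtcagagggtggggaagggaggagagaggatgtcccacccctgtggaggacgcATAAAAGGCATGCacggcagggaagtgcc
Sfn: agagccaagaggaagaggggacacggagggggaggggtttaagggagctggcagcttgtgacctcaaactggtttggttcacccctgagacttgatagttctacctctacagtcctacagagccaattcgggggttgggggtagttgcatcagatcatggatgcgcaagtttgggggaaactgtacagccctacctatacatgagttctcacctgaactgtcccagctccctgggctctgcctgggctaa
In Krt5, GCATGC lay at bases -93 to -88 and ATAAAAG at -29 to -23, counted back from the start. In Krt13, TGANTCA lay at -196 to -190 with A at N, which is not the AP-1 core itself. The Krt13 ATAAAAG at -29 to -23 was followed without a gap by GCATGC at -22 to -17. No match to these motifs was found in the Sfn window, though it holds the shorter letters CATG. Of 32851 mouse promoter windows in the table, 6.75% held TGANTCA, 6.70% held GCATGC and 4.83% held ATAAAAG. The matches are given as a description of the letters.

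Among the basal keratins, Krt5 (Entrez 110308, chr15:101707069-101712905), the type II partner in the basal layer, showed the pattern in its plainest form. The C362A libraries 1 to 5 held 20, 25, 15, 944 and 8 counts of Krt5. The knockout libraries held 17, 15, 8, 4 and 26 counts, and the wildtype libraries 17, 8, 9, 9 and 16. Only C362A replicate 4 was high, and the other 14 libraries of all genotypes overlapped. Its level was 27.3 CPM, with an exact binomial 95% interval of 25.6 to 29.1, which is 40.4 times the 0.676 CPM of the next library, knockout replicate 5. In bulk tissue, more squamous cells and more of this RNA per cell cannot be told apart.

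Krt15 (Entrez 16665, chr11:100131759-100135949), a type I keratin of basal cells and of hair follicle stem cells, started from a higher floor. Its counts were 84, 118, 64, 2833 and 96 in the C362A libraries. They were 48, 80, 82, 66 and 79 in the knockout libraries, against 87, 74, 71, 51 and 176 in the wildtype libraries. C362A replicate 4 was again the high library, at 82.0 CPM, 17.5 times wildtype replicate 5 with 4.69 CPM. Krt15 was also the only one of the 6 with 48 or more counts in every library, so a low Krt15 signal ran through all genotypes.

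Krt14 (Entrez 16664, chr11:100203162-100207510), the usual type I partner of Krt5, did not follow it. Krt14 counts were 85, 83, 86, 88 and 71 in the C362A libraries. They were 70, 56, 138, 53 and 108 in the knockout libraries, against 205, 104, 86, 92 and 52 in the wildtype libraries. Wildtype replicate 1 was highest at 5.92 CPM, and C362A replicate 4, at 2.55 CPM with an interval of 2.04 to 3.14, ranked the 9th highest of 15. The library with 944 Krt5 counts therefore held Krt14 at the level of its neighbours. Krt14 is close in sequence to Krt16 and Krt17, and the handling of reads that match several genes is not stated.

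The suprabasal pair showed the widest gaps. Krt4 (Entrez 16682, chr15:101918535-101924735), a type II keratin of differentiated cells in internal squamous linings, had 10, 30, 10, 2741 and 21 counts in the C362A libraries. It had 2, 6, 8, 2 and 15 counts in the knockout libraries, against 26, 9, 9, 8 and 29 in the wildtype libraries. C362A replicate 4 reached 79.3 CPM, which is 97.8 times the 0.811 CPM of C362A replicate 2. All other libraries lay at or below that level.

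Krt13 (Entrez 16663, chr11:100117327-100121566), the type I partner of Krt4, had 3, 19, 7, 1833 and 30 counts in the C362A libraries. It had 9, 20, 29, 6 and 19 counts in the knockout libraries, against 3, 5, 8, 22 and 1 in the wildtype libraries. At 53.0 CPM, C362A replicate 4 was 59.0 times C362A replicate 5, the next library with 0.898 CPM. Apart from that library, the genotypes overlapped at the level of a few counts to 30.

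Trp63 (Entrez 22061, chr16:25683763-25892088), the master regulator of squamous basal cells, was low in absolute terms and still stood apart. It had 4, 5, 8, 172 and 2 counts in the C362A libraries. It had 0, 7, 1, 5 and 11 counts in the knockout libraries, against 3, 3, 1, 1 and 1 in the wildtype libraries. C362A replicate 4 stood at 4.98 CPM with an interval of 4.26 to 5.78, and the next library, knockout replicate 5, at 0.286 CPM. Most other libraries lay near the floor of 3 counts.

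Of the desmosomal cadherins, Dsg3 (Entrez 13512, chr18:20510274-20541310), the pemphigus antigen of squamous desmosomes, was close to absent outside the same library. Its counts were 0, 1, 0, 130 and 0 in the C362A libraries. They were 0 in all 5 knockout libraries, against 5, 0, 0, 0 and 0 in the wildtype libraries. C362A replicate 4 stood at 3.76 CPM with an interval of 3.14 to 4.47, and wildtype replicate 1 at 0.145 CPM.

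Dsc3 (Entrez 13507, chr18:19960930-20002410), the desmocollin usually found with DSG3, varied in other libraries. Dsc3 counts were 7, 70, 4, 25 and 26 in the C362A libraries. They were 13, 20, 9, 7 and 73 in the knockout libraries, against 124, 30, 6, 19 and 25 in the wildtype libraries. One high library occurred in each genotype, namely wildtype replicate 1 at 3.58 CPM, knockout replicate 5 at 1.90 CPM and C362A replicate 2 at 1.89 CPM, and C362A replicate 4 had rank 6. The mesothelial and kidney gene Wt1 was also highest in these libraries, at 11.1 CPM in C362A replicate 2, 25.7 CPM in knockout replicate 5 and 19.3 CPM in wildtype replicate 1. Wt1 is 1 of a list of 6 mesothelium genes, all detected. The list summed to 119 to 174 CPM in C362A libraries and 132 to 175 CPM in knockout libraries, against 135 to 195 CPM in wildtype libraries. Its sum was highest in knockout replicate 5 and wildtype replicate 1 within their genotypes. Among C362A libraries, however, replicate 5 was highest at 174 CPM, and replicate 2 had 157 CPM. The part of these genes in the Dsc3 levels was not tested.

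Sfn (Entrez 55948, chr4:133600556-133602168) encodes 14-3-3 sigma, a p53 target found in squamous and in simple epithelia. Sfn had 778, 649, 632, 647 and 486 counts in the C362A libraries. It had 657, 609, 583, 603 and 470 in the knockout libraries, against 651, 631, 546, 498 and 670 in the wildtype libraries. It was abundant everywhere, the genotypes overlapped, and C362A replicate 4 ranked the fifth highest at 18.7 CPM.

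**Figure D1:**
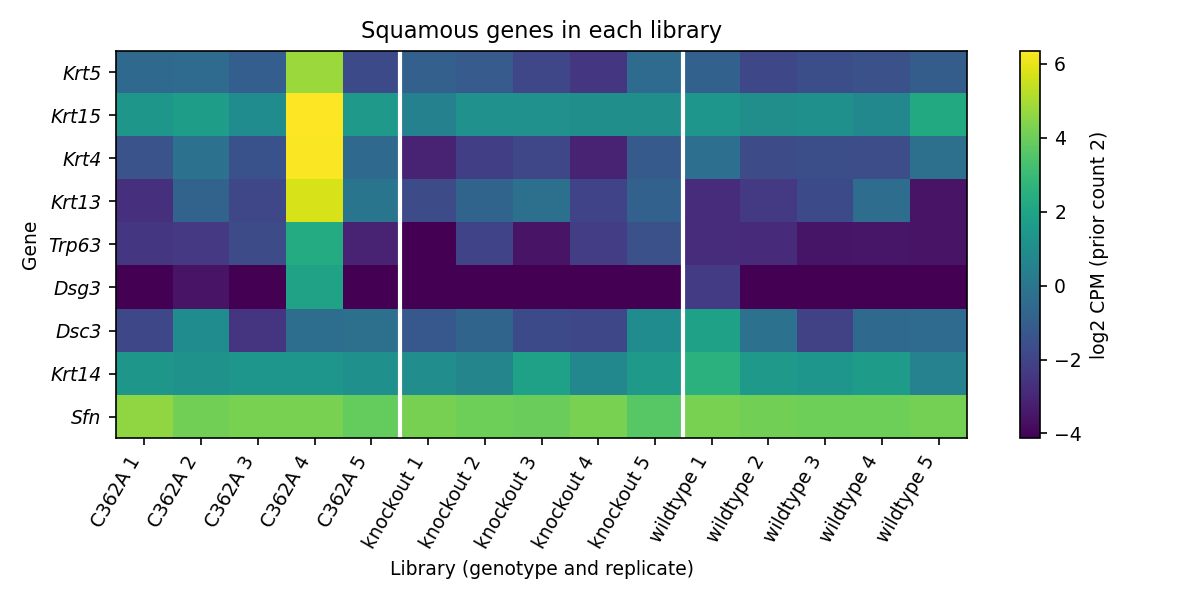
Level of each of the 9 genes (rows) in each of the 15 libraries (columns, by genotype and replicate) as log2 CPM with a prior count of 2, shown by colour. The column of C362A replicate 4 is bright for Krt5, Krt15, Krt4, Krt13, Trp63 and Dsg3, and looks like its neighbours for Dsc3, Krt14 and Sfn.

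Per length, as the deposited RPKM values, which divide reads by gene length and library size, the order of the genes changed in that library. C362A replicate 4 held Krt15 at 46.5 RPKM, Krt13 at 39.4 RPKM and Krt4 at 36.3 RPKM, ahead of Krt5 at 12.2 RPKM and Sfn at 11.3 RPKM. Krt14 followed at 1.40 RPKM, with Dsg3 at 0.894 RPKM, Trp63 at 0.684 RPKM and Dsc3 at 0.128 RPKM. In the other 14 libraries Sfn led, with a median of 10.5 RPKM and a range of 7.34 to 14.7. Krt14 at a median of 1.42 RPKM and Krt15 at 1.22 RPKM came next, and their ranges overlapped. Krt5 at 0.185 RPKM, Krt13 at 0.182 RPKM, Krt4 at 0.130 RPKM and Dsc3 at 0.103 RPKM had overlapping ranges too, with medians above those of Trp63 at 0.0116 RPKM and of Dsg3, whose median was 0. The suprabasal keratins thus stood near the basal Krt15 in C362A replicate 4, where Krt14 was the low one among the 5 keratins.

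**Figure D2:**
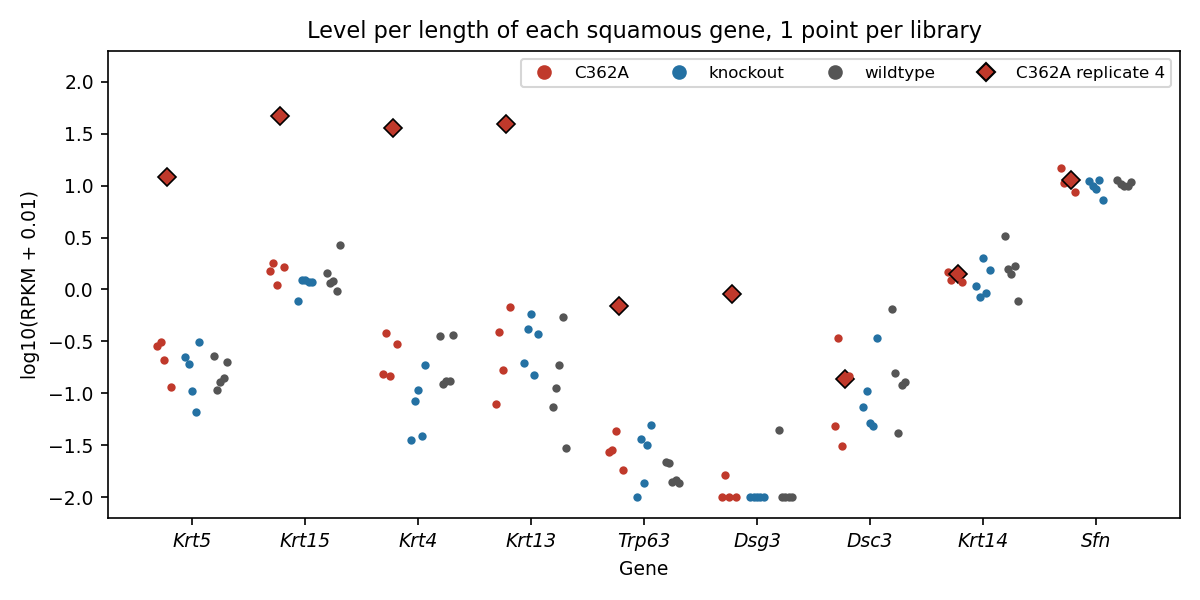
Deposited level per length (vertical axis, log10 of RPKM plus 0.01) of each gene (horizontal axis), 1 point per library, coloured by genotype; the diamond is C362A replicate 4. For the 6 genes on the left the diamond lies above all other points, with Krt15 at 46.5 RPKM at the top, and for Dsc3, Krt14 and Sfn it lies among them.

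Summed, the type I keratins Krt14, Krt15 and Krt13 reached 87.4 RPKM and the type II keratins Krt5 and Krt4 48.5 RPKM in C362A replicate 4. Elsewhere the type I sum was 2.03 to 4.74 RPKM and the type II sum 0.0845 to 0.669 RPKM. All 9 genes together took 9413 counts in C362A replicate 4 and 700 to 1121 counts in the others. The TMM scaling factors of the 15 libraries lay between 0.949 and 1.05.

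The spread between libraries reflects the same point. The SD of log2 CPM over the 15 libraries was 2.21 for Krt4, 2.15 for Krt13, 1.66 for Krt5, 1.59 for Dsg3, 1.53 for Trp63 and 1.39 for Krt15, against a median of 0.20 over all genes tested. Without C362A replicate 4 these SDs were 0.94, 1.08, 0.61, 0.50, 0.78 and 0.42 in the same order. Dsc3 kept an SD of 1.25 with it and 1.30 without it, Krt14 of 0.51 and 0.53, and Sfn of 0.22 in both. Taken in pairs, the 6 genes that stood apart had Spearman's rho of -0.12 to 0.74 over 15 libraries, with a median of 0.33, and of -0.40 to 0.68 over the 14, with a median of 0.17. Most of these levels outside C362A replicate 4 are a few counts, too few to read a shared order from.

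Whether the genotypes differed was examined with edgeR's quasi-likelihood test on all 18370 genes that passed its filter on low counts. Of the 9 genes, 7 passed it, and Trp63 and Dsg3 did not. At an adjusted p under 0.05 (Benjamini-Hochberg over all genes tested), 0 of the 7 were called in C362A against wildtype, where 0.0817% of all genes were. Likewise 0 were called in knockout against wildtype (background 0.0381%) and 0 in C362A against knockout (background 0.0109%). At an unadjusted p under 0.05, in either direction, 4 of 7 passed in C362A against wildtype (background 15.9%), 0 in knockout against wildtype (2.43%) and 4 in C362A against knockout (13.9%). The comparisons share libraries, and the 4 genes were Krt5, Krt15, Krt4 and Krt13 both times, higher in C362A. All 4 are high in C362A replicate 4, and the 9 genes were chosen by such counts. The 4 of 7 beside the background is therefore a description and no sign of enrichment. By limma-voom 0 of the 7 were called in C362A against wildtype (background 0.0762%), knockout against wildtype (0.0381%) and C362A against knockout (0.0163%). At an unadjusted p under 0.05, 0 of the 7 passed in each, where 3074, 492 and 2745 of the 18370 genes did. DESeq2, which gives no p where Cook's distance marks a count as extreme, gave none for Krt5, Krt15, Krt4 and Krt13, and called 0 of the 3 others in C362A against wildtype (background 0.294%), knockout against wildtype (0.0708%) and C362A against knockout (0.142%).

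In C362A against wildtype the fitted differences of these keratins were wide. Krt5 averaged 5.86 ± 12 CPM in C362A and 0.340 ± 0.114 CPM in wildtype (SD, n = 5 each), a log2 fold change of 4.09 (SE 1.27, adjusted p = 0.285). Krt4 averaged 16.3 ± 35.2 CPM in C362A and 0.460 ± 0.276 CPM in wildtype (log2 fold change 5.12, SE 1.62). The SD exceeded the mean in C362A, and the counts above show that 1 library, replicate 4, carried each C362A average. Krt13 averaged 11 ± 23.5 CPM in C362A and 0.241 ± 0.278 CPM in wildtype (5.55, SE 1.70), and Krt15 18.5 ± 35.5 CPM in C362A and 2.60 ± 1.20 CPM in wildtype (2.82, SE 1.02). The adjusted p of all 4 keratins was 0.285. By limma-voom the log2 fold changes were smaller, at 1.67 for Krt5, 1.71 for Krt4, 2.57 for Krt13 and 1.09 for Krt15, with adjusted p of 0.396 to 0.508.

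The other tested genes differed by little. Sfn averaged 18.8 ± 3.50 CPM in C362A and 17.3 ± 1.09 CPM in wildtype, with a log2 fold change of 0.12 (SE 0.13, adjusted p = 0.634 by edgeR). Krt14 had a log2 fold change of -0.37 (SE 0.31) and Dsc3 of -0.64 (SE 0.82), neither of them called. In knockout against wildtype the 7 values ran between -1.34 for Krt4 (SE 2.11) and 0.97 for Krt13 (SE 1.90), all with an edgeR adjusted p of 0.9999. In C362A against knockout they were 6.46 for Krt4, 4.58 for Krt13, 3.92 for Krt5 and 3.24 for Krt15 (adjusted p = 0.317 for each), beside 0.21 for Sfn, 0.19 for Dsc3 and 0.06 for Krt14.

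Without C362A replicate 4, the fitted differences of the 4 keratins from wildtype shrank to 0.55 for Krt5 (SE 0.43), 0.02 for Krt15 (SE 0.27), 0.16 for Krt4 (SE 0.50) and 0.88 for Krt13 (SE 0.72). None of the 7 genes was called by edgeR in C362A against wildtype then (background 0.0647%). At an unadjusted p under 0.05, 0 of the 7 passed, where 1633 of 18550 genes did. None was called in C362A against knockout (background 0.0108%), where 1 of the 7 passed unadjusted beside 1782 of 18550 genes. Against knockout, Krt13 turned to -0.07, Krt5 had 0.38 and Krt15 0.43, and Krt4 kept 1.50 (SE 0.55, edgeR adjusted p = 0.512). Krt4 then averaged 0.513 ± 0.250 CPM in the 4 remaining C362A libraries and 0.177 ± 0.137 CPM in the 5 knockout libraries (SD), on 10 to 30 counts in C362A and 2 to 15 in knockout, which overlap. In knockout against wildtype, the fit without C362A replicate 4 gave -1.34 for Krt4 (SE 0.53) and 0.95 for Krt13 (SE 0.68). Their wider SEs of 2.11 and 1.90 above came from the fit of all 15 libraries. None of the 7 was called by edgeR there, where 5 of 18550 genes were. Krt4 alone passed unadjusted, beside 485 of 18550 genes. The only call for any of the 9 genes came on leaving out C362A replicate 5, when Krt5 had 4.40 (adjusted p = 0.0443) and 9.76% of all genes were called. With no filter on low counts, Trp63 had a log2 fold change of 4.33 (adjusted p = 0.369) and Dsg3 of 4.55 (adjusted p = 0.446) in C362A against wildtype.

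**Figure D3:**
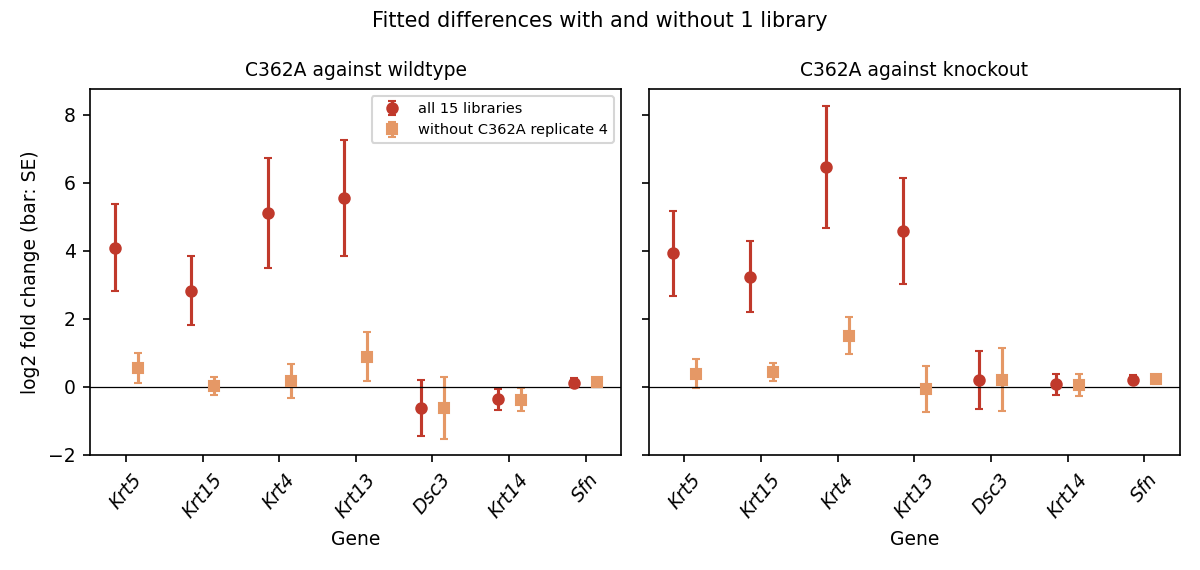
Fitted log2 fold change (vertical axis, points, with bars of 1 SE) of the 7 tested genes (horizontal axis) in C362A against wildtype (left) and C362A against knockout (right), over all 15 libraries (circles) and without C362A replicate 4 (squares). Krt5, Krt15, Krt4 and Krt13 lie between 2.82 and 6.46 as circles and between -0.07 and 1.50 as squares, and Dsc3, Krt14 and Sfn barely move.

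The sample ID numbers fall into 2 runs of consecutive numbers, which the labels do not explain. C362A replicates 2 and 5 are in the first run and 1, 3 and 4 in the second. In the first run, C362A minus wildtype mean log2 CPM was 0.14 for Krt5, 0.39 for Krt15, 0.59 for Krt4 and 1.84 for Krt13 (n = 2 each). In the second, which holds C362A replicate 4, it was 2.55, 1.56, 2.34 and 2.47 in the same order (n = 3 each). These within-run values were not tested. The Krt13 counts of the first run were 19 and 30 in C362A and 3 and 8 in wildtype.

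Of 40 further genes of the basal and suprabasal layers, 2 stood apart in C362A replicate 4, namely Calml3 and Col17a1. They had at least 1 CPM there and at least 4 times the next library. Between genotypes, where that library is 1 of 5, 29 of the 40 were tested. EdgeR called 0 of them in each of the 3 comparisons. Without adjustment, 3 of the 29 passed p under 0.05 in C362A against wildtype (2 higher in C362A), where 15.9% of all genes did. In knockout against wildtype 0 passed (background 2.43%), and in C362A against knockout 5 did (3 higher in C362A, background 13.9%). These counts are too small to set the 29 apart from all genes. The 29 had a median log2 fold change of 0.08 in C362A against wildtype beside 0.01 for all genes tested. The summed level of all 40 was 886 CPM in C362A replicate 4, the highest of 15, against 698 to 877 CPM elsewhere. Dsc2, the desmocollin that most epithelia share, had 165 CPM in that library and up to 164 CPM elsewhere, and Itga6, the integrin subunit of hemidesmosomes, 137 CPM and up to 126 CPM. For 18 of the 40, C362A replicate 4 was the highest library. How often it was the highest over all genes was not counted, so the 18 are a description only. Tgm1, the transglutaminase that cross-links the cornified envelope, was called in C362A against wildtype by DESeq2 and on leaving out C362A replicate 5, but not over all libraries by edgeR (log2 fold change 0.83, SE 0.20, adjusted p = 0.256).

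Genes of the 40 and of related lists that stood out were named after their values were seen. Calml3, a calmodulin-like protein of stratified epithelia, had 232 counts in C362A replicate 4 and at most 9 elsewhere. Col17a1, the hemidesmosomal collagen of basal cells, had 244 counts and at most 60 elsewhere. Pkp1, a plakophilin of squamous desmosomes, had 286 and at most 30. These belong to the attachment and differentiation machinery of squamous cells. The wound keratin Krt6a had 127 counts and at most 47 elsewhere, whereas its partner Krt16 had 0 there and at most 2 elsewhere. General desmosome genes such as Jup and Dsp, shared with simple epithelia, did not stand out, with 278 and 174 CPM there and up to 344 and 196 CPM elsewhere.

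Keratins that stood apart lay beside keratins that did not. Of the 54 keratin genes in the clusters on chromosomes 11 and 15, 27 on each, 17 exceeded 1 CPM in some library. Only Krt13 and Krt15 on chromosome 11 and Krt5 and Krt4 on chromosome 15 were at least 4 times the next library. Krt13 and Krt15 are neighbours in the annotation, and Krt19, which follows Krt15, had 555 CPM in C362A replicate 4 and up to 666 CPM elsewhere. Krt6a lies next to Krt5 and Krt14 between Krt19 and Krt17, and neither met that mark. Krt17 had 8.45 CPM in that library and up to 7.43 CPM elsewhere.

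Marker lists of other epithelia and tissues were read beside the keratins. Their part in the keratin levels was not tested. Cornified skin genes, 11 in number, summed to 9.95 CPM in C362A replicate 4 and to 8.20 to 17.2 CPM elsewhere. Krt2, Krt77, Flg and Dsc1 were at 0 in C362A replicate 4. Krt2 had at most 1 count in any other library, and Krt77 at most 11, so such zeros say little. The 20 stomach epithelium genes summed to 23.4 CPM in C362A replicate 4, inside the 10.5 to 40.2 CPM of the others, with Muc5ac and Gast at 0. The 5 stomach mesenchyme genes summed to 11.4 CPM, rank 2 of 15, with a median of 4.95 CPM and a range of 2.77 to 15.6 CPM elsewhere. Sox2, counted with both stomach and foregut, was highest in C362A replicate 4.

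The list of oesophagus and foregut genes, 8 in number, summed to 78.6 CPM in C362A replicate 4 and was the highest of 15. The other C362A libraries had 56.6 to 74.1 CPM and the knockout libraries 48.9 to 65.9 CPM, against 56.6 to 71.7 CPM in wildtype. Pax9, a transcription factor of foregut and oral epithelium, had 79 counts there and at most 1 elsewhere, and Foxe1, a foregut and thyroid factor, had 37 and at most 3. Sox2, the factor of oesophagus and stomach, had 186 counts and at most 80. Nkx2-1, the lung and thyroid factor, had 0 counts in all 15 libraries, and the rest of the sum came mostly from Hoxa5 (39.7 CPM there and 30.1 to 48.7 CPM elsewhere) and Pitx1.

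Airway epithelium genes, 6 in number, summed to 4.11 CPM in C362A replicate 4. The other C362A libraries had 1.35 to 2.09 CPM and the knockout libraries 1.03 to 1.80 CPM, against 0.833 to 1.75 CPM in wildtype. Nearly all of it was Foxj1, the regulator of motile cilia, with 138 counts there and at most 61 elsewhere. Scgb1a1, the club cell secretoglobin, had 0 counts in that library, and Scgb3a2 and Nkx2-1 had 0 in every library. Cyp2f2 and Cbr2, genes of airway secretory cells that the list does not hold, had 1073 and 134 counts in the same library, and at most 19 and 31 elsewhere.

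In C362A replicate 4 the 4 urothelium genes summed to 19.0 CPM (10.4 to 21.4 CPM elsewhere), the 8 hindgut and anorectum genes to 60.6 CPM (31.1 to 63.6), the 5 thymus epithelium genes to 8.88 CPM (9.06 to 12.3) and the 8 melanocyte and hair follicle genes to 5.79 CPM (4.60 to 8.92). The 6 mesothelium genes summed to 119 CPM, the lowest of 15, and the 20 p63 related regulators to 1074 CPM (937 to 1088 elsewhere). The 15 small intestinal epithelium genes, led by the apolipoprotein Apoa4, summed to 11955 CPM in C362A replicate 4. They summed to 9462 to 18097 CPM in the other C362A libraries and 18959 to 21837 CPM in knockout libraries, against 11935 to 33229 CPM in wildtype libraries. C362A replicate 4 lay inside that range. C362A replicate 4 was also the highest of 15 for the 13 genes of the inflammation list, which hold the wound keratins too, at 78.2 CPM. They summed to 36.1 to 62.3 CPM in the other C362A libraries and 30.9 to 59.9 CPM in knockout libraries, against 29.3 to 46.5 CPM in wildtype libraries. Krt16 and Il1f6 were at 0 in C362A replicate 4, and S100a9, a neutrophil and wound epithelium protein, had 1012 counts there and at most 748 elsewhere.

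**Figure D4:**
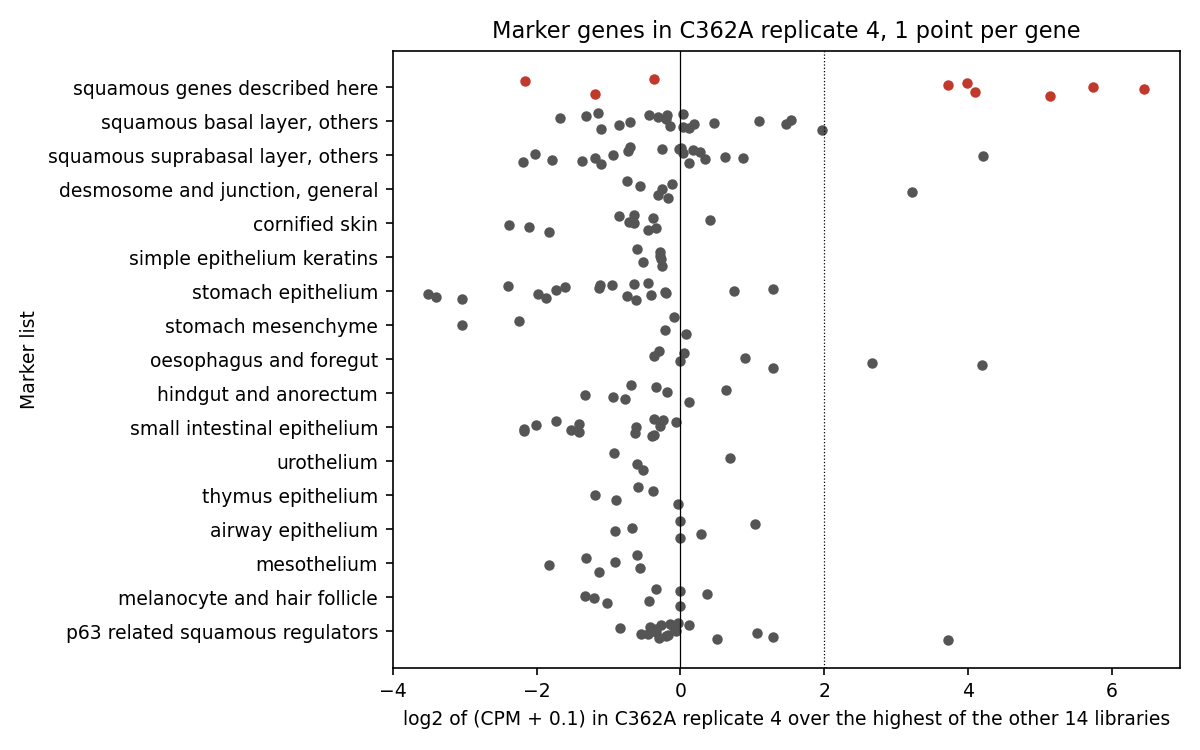
Log2 of the CPM plus 0.1 in C362A replicate 4 over the highest of the other 14 libraries (horizontal axis), 1 point per gene, for each marker list (vertical axis); the solid line marks no difference and the dotted line 4 times. Of the 9 squamous genes in red, 6 lie to the right of the dotted line and 3 to the left of the solid one, and few genes of other lists lie far to the right, among them Calml3, Pkp1, Pax9 and Foxe1.

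Over the whole table, 20 genes had at least 1 CPM in C362A replicate 4 and at least 4 times the next library. They comprise 6 of the 9 squamous genes, the 5 listed genes Pkp1, Col17a1, Calml3, Pax9 and Foxe1, and 9 others, of which 1 had no name in RefSeq. Cyp2f2, a cytochrome P450 best known from mouse club cells, led the others with 1073 counts and at most 19 elsewhere. Upk3bl, a uroplakin-like gene, had 274 and at most 28, and Cbr2, the lung carbonyl reductase, 134 and at most 31. Tmprss11b, a membrane serine protease, had 56 counts there and 0 in the other 14 libraries. Lrrc23 had 58 counts, Adam28 51, Sec14l3 41 and 2300002M23Rik 38, with at most 12 elsewhere.

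Standing apart in this way was rare. In 13 libraries 0 genes met the same mark, and in knockout replicate 5 there were 70. Those 70 were led by kidney genes such as Cdh16, with 1745 counts and at most 10 elsewhere, and Pax2, with 578 and at most 4, and held none of the 9 squamous genes. Knockout replicate 5 had the second highest Trp63 level of all libraries, at 0.286 CPM on 11 counts. Its Krt5 level of 0.676 CPM, on 26 counts, was nearly tied for second with C362A replicate 2, on 25 counts.

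**Figure D5:**
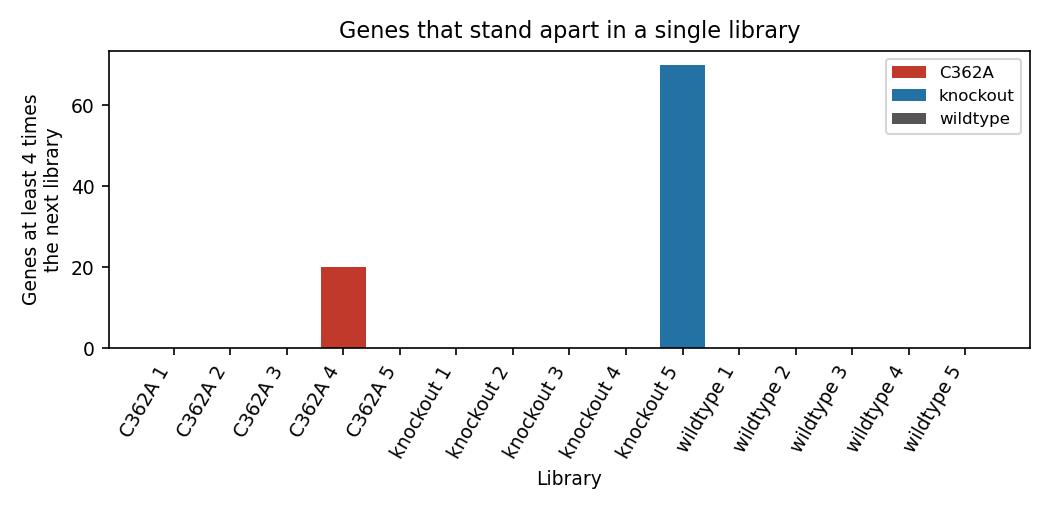
Number of genes (vertical axis) with at least 1 CPM and at least 4 times the next highest library, for each library (horizontal axis), coloured by genotype. Bars stand at C362A replicate 4, with 20 genes, and knockout replicate 5, with 70, and the other 13 libraries have 0.

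The genes most like the 9 were ranked by Spearman's rho between their log2 CPM and the mean log2 CPM of the 9 over 15 libraries, among 15692 genes. Fbxo10, an F-box protein, came first with a rho of 0.91, then Samd12 and Herc6 with 0.85, Scara5, Man2a2 and Afap1l2 with 0.84, Csf2rb2, Dnah1 and B4galt1 with 0.83, and Fbxl13, Rhobtb1 and Ebf1 with 0.82 to 0.83. None is a squamous gene, and Fbxo10 had 24.6 CPM in C362A replicate 4 and up to 24.9 CPM elsewhere. Ranks give little weight to 1 library, and Pearson's r put Col17a1 first with 0.90 and shared 0 of the 12 genes. For the genes that did not stand apart, the nearest patterns were Igfbp6 for Krt14 (rho 0.78), Boc and Oprk1 for Dsc3 (0.94 each), and Dynll1 and Mrto4 for Sfn (0.96 each). These values are over 15 libraries of shared genotypes and carry no p.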

How the data were processed

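Per the labels' protocols, polyadenylated RNA from embryonic intestine was made into libraries with a TruSeq kit that does not mark strand (RNeasy extraction, on-column DNase) and sequenced as single-end reads on a HiSeq4000. Reads were aligned with GSNAP to GRCm38, per the submitters' processing notes; no counting tool is named there, and the handling of multiply mapped reads is not stated. The authors deposited, for each library, a raw count per Entrez gene ID and an RPKM value, which per the file headers stand side by side. The 36528 IDs were named through RefSeq (GRCm38.p6), which matched 31049.

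Counts were fitted with edgeR 4.0.16 (R 4.3.3; robust quasi-likelihood, TMM, genes kept by filterByExpr at count 10 and total 15) in 1 model of the 15 libraries with a mean per genotype. Calls use an adjusted p under 0.05 over all genes tested. Log2 CPM used a prior count of 2. DESeq2 1.42.0, limma 3.58.1 (voom, and log2 of RPKM plus 1), other filters and scalings, a block for the runs of ID numbers and leaving out each library were alternatives. The test was checked on simulated data. Replicate numbers were given in accession order and pair nothing; counts of the 30 pairs of replicates differed beyond sampling noise, with a chi-square per gene of 10.7 to 138.

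The 9 genes and the lists were chosen with earlier results of these data known. Of 197 list entries, 190 matched a symbol and 3 a synonym, 1 was a repeat and 3 were not found. Named genes are the 9, up to 4 per list by mean CPM, any called gene, the 12 most alike, and Casp8 and Mlkl; the marks of 4 times the next library and 1 CPM, the motifs and other named genes were chosen after values were seen.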

Additional observations from a re-analysis of the deposited data

Results flagged for a closer look

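Each of the 9 genes was examined in each genotype for a library whose gap to its nearest neighbour was a large part of the group's range of CPM, by Dixon's ratio with a critical value of 0.71 for 5 libraries. The genes were chosen for counts that stand out in some libraries, so the ratios describe that choice and test nothing: the chance rate of about 1 group in 20 holds for genes not chosen this way. Of the 27 groups of 5, 11 passed the critical value. Among the 11, 6 were C362A replicate 4 as the highest library, with a ratio of 0.984 for Krt5, 0.984 for Krt15, 0.994 for Krt4, 0.985 for Krt13, 0.963 for Trp63 and 0.993 for Dsg3. For Dsg3, wildtype replicate 1 was also the highest of its group with a ratio of 1, on 5 counts against 0 in the other 4 libraries. For Dsc3, knockout replicate 5 (0.806) and wildtype replicate 1 (0.811) were the highest of theirs. Krt15 had its lowest knockout library in replicate 1 (0.855) and its highest wildtype library in replicate 5 (0.719), at 1.35 and 4.69 CPM.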

How the results depend on the processing

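Of all values recomputed under the alternatives, 661 kept their direction and side of the threshold, or for levels and counts their size, 10 turned sign without being called, 5 moved and 1 passed the threshold. The number of the 9 squamous genes called in C362A against wildtype was 0 to 1 on leaving out each library, with 1 (Krt5, log2 fold change 4.40) without C362A replicate 5; it was 0 in the other comparisons and under the other alternatives run, where DESeq2 gave no p for Krt5, Krt15, Krt4 and Krt13. Limma on log2 of RPKM plus 1 gave these keratins log2 fold changes of 0.77, 0.90, 1.01 and 1.15 in C362A against wildtype, in that order. The number of other squamous genes called in C362A against wildtype was 1 by DESeq2 (Tgm1), and 0 to 1 on leaving out each library. Leaving out each library turned the sign of these uncalled log2 fold changes: Dsc3 ran between -1.34 and 0.39 in C362A against wildtype, -1.77 and 0.20 in knockout against wildtype, and -0.51 and 1.13 in C362A against knockout; Krt5 between -0.14 and 0.38 and Sfn between -0.15 and 0.00099 in knockout against wildtype; Krt14 between -0.057 and 0.29 and Krt13 between -0.070 and 4.90 in C362A against knockout. The 4 keratins in C362A against wildtype ran between 0.55 and 4.40 (Krt5), 0.02 and 3.15 (Krt15), 0.16 and 5.44 (Krt4), and 0.88 and 6.46 (Krt13), each lowest without C362A replicate 4. With a prior count of 0.5, Dsg3 in C362A replicate 4 stood 8.04 log2 units above the median library. Ranking by Pearson's r shared 0 of the 12 most alike genes, and leaving out Sfn from the mean shared 8. The filter of 1 CPM in 5 libraries dropped Krt5, Krt4, Krt13 and Dsc3, which gave no value there. The cause of these changes was not tested beyond the libraries named. No paired analysis was possible because the replicate numbers were given in accession order. Levels of Trp63 and Dsg3 outside C362A replicate 4 lie near the floor of 3 counts, and differences between genotypes there were not detectable at this depth.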
